A study of Mus musculus with 2 samples.

Results

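The genes described here are 38 immediate-early and dissociation response genes, chosen by name as the rows of the expression table whose symbol equals a listed gene. All 38 were among the 24369 rows. The table came from surfactant-producing epithelial cells of the alveolus, called AT2 cells or type II pneumocytes, sorted from whole lungs of wild-type (WT) C57BL6 mice at postnatal day 7 (labelled P07, here P7) and postnatal day 28 (P28). There was 1 library per age, and no treatment, allele or transgene is named for either. The labels name neither the number of mice behind a library nor the markers of the sort. Each library gave 1 value per gene in RPKM, a read density scaled to transcript length and library depth, so levels can be compared between genes. Comparisons between ages also depend on how the libraries are scaled, as given below.

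Immediate-early genes are transcribed within minutes of a stimulus, from promoters already loaded with transcription factors such as serum response factor (SRF) and CREB, without new protein synthesis. Their products are mostly transcription factors (the FOS and JUN subunits of AP-1, the EGR and NR4A families) and feedback inhibitors that end the response, such as the DUSP phosphatases of MAP kinases, the ZFP36 proteins that destroy AU-rich mRNAs, and the inhibitors of NF-kB. Enzymatic dissociation and sorting of a tissue are known to switch on many of these genes, so in sorted cells their levels can hold both the state in the lung and the handling. Nothing in these libraries separates these sources.

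The spacing of the lowest values put about 17600000 reads behind the RPKM of the P7 library and 24600000 behind that of P28. Both depths are estimates. All ratios are P28 over P7 unless stated, and intervals in parentheses are 95% exact counting intervals, which hold counting error only. No replicate spread is known, so no difference has a test, and "higher" or "lower" compares these 2 libraries. Type 2 cell markers, such as the surfactant protein genes, summed to 20164 RPKM at P7 and 37683 at P28, all 13 of them reaching 1 RPKM. Sftpc alone had 13343 and 24085 RPKM. On the log2(RPKM + 1) scale 2 of the 13 were 2-fold higher, 0 were 2-fold lower and 11 lay within 2-fold. Among these 11, Nkx2-1 and Lyz1 had ratios of 0.790 and 0.912. Marker sums of most other cell types differed too, while the 7 ciliated cell markers summed to 212.8 and 207.5 RPKM. The 12 endothelial markers summed to 50.7 and 18.9 RPKM, the 12 fibroblast and smooth muscle markers to 43.4 and 18.3, and the 7 airway secretory markers to 7237 and 19033. The 8 type 1 cell markers summed to 345.8 and 211.7, and the 8 erythroid markers to 47.9 and 1.73. The 15 leukocyte markers summed to 6.38 and 5.76 RPKM, and 7 of them, including Marco, C1qa and Adgre1, were at 0 in both. Early-response genes can be induced in most cell types, and the part of other cells in the values below was not tested. In RNA from a sorted population, a change in cells that express a gene and a change in RNA per cell cannot be told apart. Xist had 52.7 RPKM at P7 and 0.245 at P28 while the Y-linked Ddx3y had 0 and 4.01, so age and the sex of the animals cannot be told apart either.

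Zfp36 differed most between the libraries, and most of the other early-response genes, like most genes of the table, differed by less than 1.5-fold. Of the 38 genes, 30 reached 1 RPKM in at least 1 library, and 8 did not. Among the 30, only Zfp36 was at least 2-fold higher at P28 on the log2(RPKM + 1) scale and 0 were 2-fold lower, where 1.18% of 9653 genes were higher and 1.96% lower. On that scale 25 of the 30 lay within 1.5-fold (83.3%, against 88.0% of all genes). Nr4a2 counted among the 30 only through its level at P28. Their median log2 ratio was 0.14 and that of all genes -0.08. The log2 ratio was above 0 for 20 of the 30 genes (66.7%) and for 39.3% of all genes. The 10 most abundant genes of the table took 27.9% of the P7 total and 44.0% of the P28 total, and rescaling both libraries to the same total moved the median of all genes from -0.08 to -0.38. On the rescaled values the 30 genes had a median of -0.21, and 9 of them (30%) were above 0 against 13.0%.

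**Figure D1:**
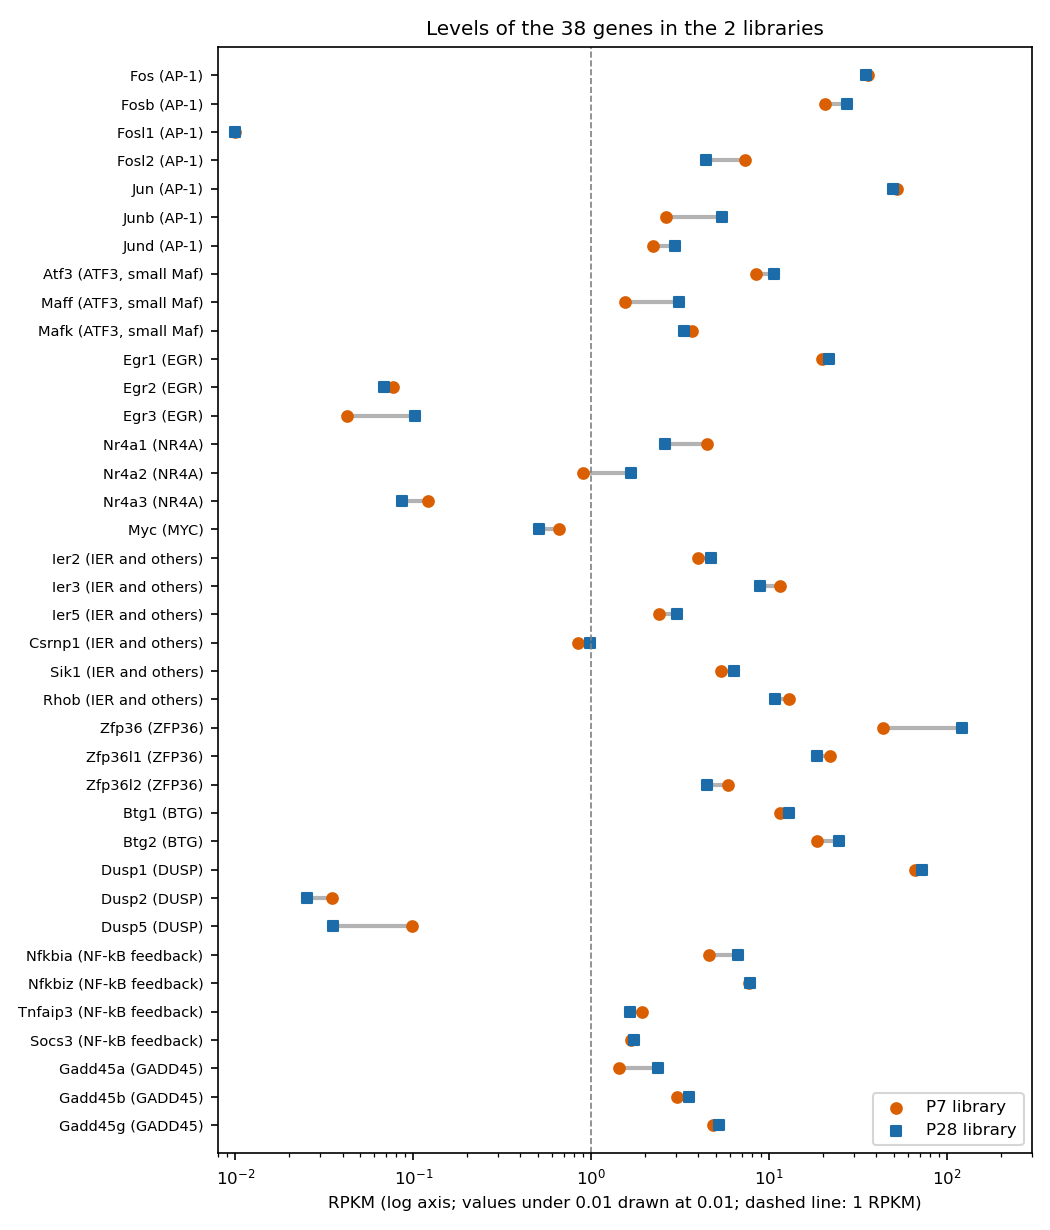
RPKM of each of the 38 genes (log axis) in the P7 library (circles) and the P28 library (squares), grouped by role, with a dashed line at 1 RPKM. Dusp1, Jun, Zfp36 and Fos lie at the top of the range in both libraries, 8 genes stay left of the line, and the widest step among the abundant genes is that of Zfp36, from 43.5 to 122.0 RPKM.

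The set spanned more than 3 orders of magnitude, and its order was nearly the same at both ages. At P7 the most abundant was Dusp1 at 66.2 RPKM, followed by Jun (52.0), Zfp36 (43.5), Fos (35.8), Zfp36l1 (22.0), Fosb (20.7), Egr1 (19.8) and Btg2 (18.6). At P28 Zfp36 led with 122.0 RPKM, followed by Dusp1 (72.0), Jun (49.5), Fos (35.0), Fosb (27.3), Btg2 (24.8), Egr1 (21.7) and Zfp36l1 (18.7). The same 8 genes therefore held the first 8 places in both libraries. Dusp1 stood at percentile 99.3 of all rows in both, and Jun at 99.1 and 99.0. Across the 30 genes of 1 RPKM or more the levels of the libraries had a Pearson r of 0.959 on log2(RPKM + 1) and a Spearman rho of 0.944, where all 9653 genes had 0.946 and 0.916. These describe genes of the same pair of libraries, which are not replicates. The 38 genes summed to 390.5 RPKM at P7 and 487.3 at P28, and without Zfp36 to 347.0 and 365.3. As shares of the total RPKM the sums were 0.359% and 0.341%.

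The ratio lay beyond counting error for 21 of the 30 genes, in both directions. The interval lay above 1 for 14 genes, where 18.0% of 9585 genes did, and below 1 for 7, where 33.1% did. It held 1 for the other 9. After rescaling to the same total it lay above 1 for 4 genes, namely Zfp36, Junb, Maff and Nr4a2, where 5.17% of all genes did, and below 1 for 14, where 67.8% did. Over 4 other scalings of the libraries, each of which shifts all genes alike, 17 of the 30 genes (56.7%) kept the sign of their plain log2 ratio, against 65.8% of all genes. These shares depend on the mix of directions. Of the 20 genes higher at P28, 9 kept it, against 33.1% of all higher genes. Of the 10 lower ones 8 did, against 86.9%. Those higher at P28 under each were Zfp36, Junb, Maff, Nr4a2, Gadd45a, Nfkbia, Btg2, Fosb and Jund, the last 3 by less than 0.02 with equal totals. Those lower under each were Fosl2, Nr4a1, Ier3, Rhob, Zfp36l1, Zfp36l2, Mafk and Tnfaip3. The direction of the other 13, which include Fos, Jun, Egr1, Dusp1, Atf3 and Btg1, depended on the scaling.

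**Figure D2:**
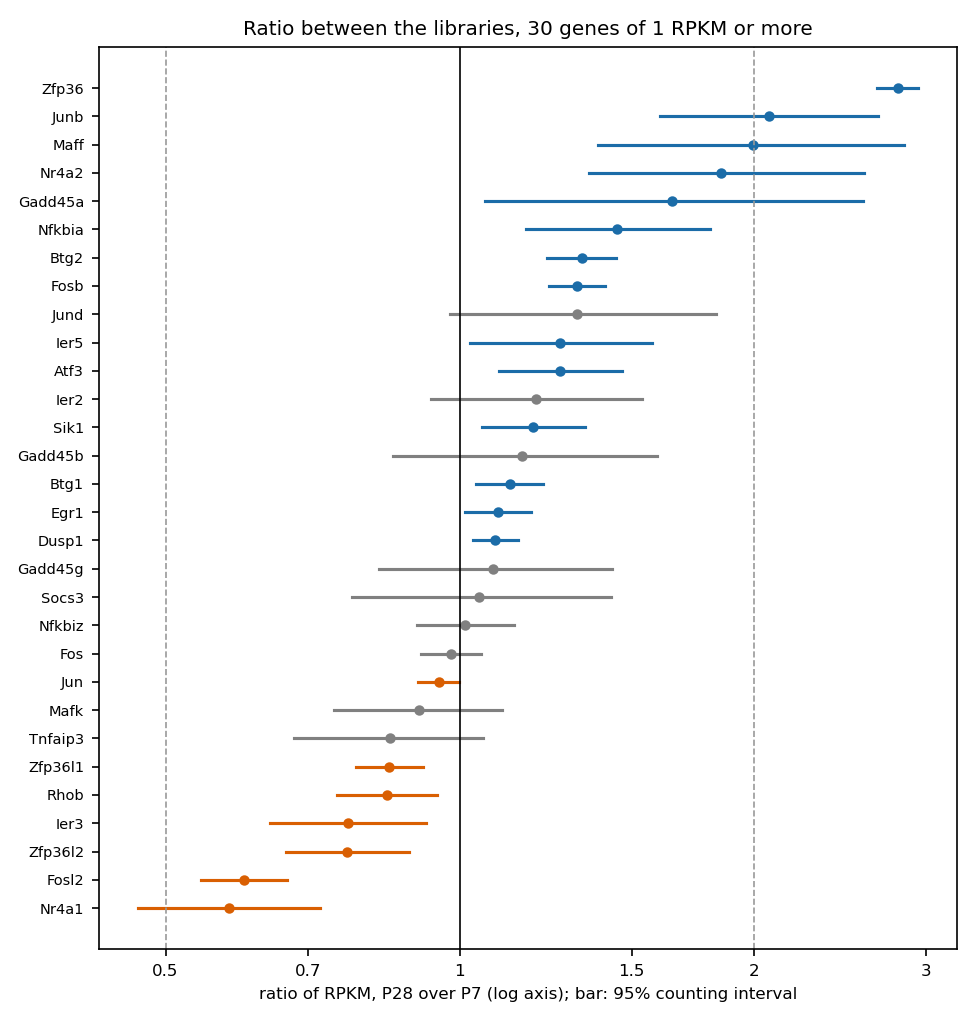
Ratio of RPKM at P28 over P7 (log axis) for the 30 genes of 1 RPKM or more, with 95% counting intervals. Blue intervals lie above 1 (14 genes), orange ones below 1 (7 genes) and grey ones hold 1 (9 genes), and only Zfp36 has an interval wholly beyond the dashed line at 2.

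Zfp36 encodes tristetraprolin, a zinc finger protein that binds AU-rich elements and recruits the deadenylase that destroys such mRNAs, its own among them. The gene (ENSMUSG00000044786.6, protein coding, chromosome 7, 28376784 to 28380253, minus strand, GRCm38) had 43.5 RPKM at P7 and 122.0 at P28. The ratio was 2.81 (2.68 to 2.94), and the log2 ratio of 1.47 ranged from 1.08 to 1.55 over the 8 alternative settings, so Zfp36 stayed at least 2-fold higher in each. An opposite-strand gene, Gm44710, overlaps Zfp36 and is not a row of the table. The percentile of Zfp36 among all rows went from 98.9 to 99.7. The relatives that act on the same elements were not higher. Zfp36l1 had 22.0 and 18.7 RPKM, a ratio of 0.847 (0.783 to 0.917). Zfp36l2 had 5.85 and 4.49 RPKM, a ratio of 0.767 (0.663 to 0.888). Zfp36 was thus about 2 times as abundant as Zfp36l1 at P7 and 6.54 times at P28.

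The promoters of Zfp36 (ratio 2.81) and of 3 abundant genes with ratios nearer 1 (Fosb 1.32, Fos 0.980 and Dusp1 1.09) are shown. They were picked by level and because different response elements were matched in the bases searched. Each is the 250 bases before the gene start in RefSeq on GRCm38.p6, read 5′ to 3′ on the gene's strand, at chr7:28379229-28379478 (minus) for Zfp36, chr7:19310046-19310295 (minus) for Fosb, chr12:85473640-85473889 (plus) for Fos and chr17:26508473-26508722 (minus) for Dusp1. Capitals mark matches to the CArG box that binds SRF, to the core of the cyclic AMP response element (CRE), TGACG, to the full CRE, TGACGTCA, to the AP-1 site, TGANTCA, and to the TATA box, TATAAA. Each was searched on both strands except the TATA box, and NF-kB matches are not capitalised.
Zfp36: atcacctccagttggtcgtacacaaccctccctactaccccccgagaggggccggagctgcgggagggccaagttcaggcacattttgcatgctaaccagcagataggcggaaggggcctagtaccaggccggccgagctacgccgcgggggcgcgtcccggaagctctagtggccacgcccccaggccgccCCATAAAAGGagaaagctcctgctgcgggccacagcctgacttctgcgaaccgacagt
Fosb: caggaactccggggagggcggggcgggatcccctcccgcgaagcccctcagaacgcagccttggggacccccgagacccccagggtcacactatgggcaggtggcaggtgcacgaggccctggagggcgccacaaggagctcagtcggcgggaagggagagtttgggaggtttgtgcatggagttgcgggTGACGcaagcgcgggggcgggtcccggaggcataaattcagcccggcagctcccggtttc
Fos: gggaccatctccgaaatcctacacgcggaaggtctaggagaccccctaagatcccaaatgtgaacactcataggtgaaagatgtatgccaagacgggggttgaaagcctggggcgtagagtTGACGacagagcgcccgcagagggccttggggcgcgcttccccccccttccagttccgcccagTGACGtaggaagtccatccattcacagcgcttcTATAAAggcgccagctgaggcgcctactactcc
Dusp1: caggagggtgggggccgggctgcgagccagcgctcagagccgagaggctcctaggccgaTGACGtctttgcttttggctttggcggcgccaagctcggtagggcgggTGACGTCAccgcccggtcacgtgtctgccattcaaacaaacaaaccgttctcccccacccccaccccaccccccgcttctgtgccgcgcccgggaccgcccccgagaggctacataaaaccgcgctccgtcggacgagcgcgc
In these windows Zfp36 held a CArG box 58 to 49 bases before the start and no CRE core. Fos held CRE cores 129 to 125 and 66 to 62 bases before the start and a TATA box at 33 to 28. Fosb held a CRE core at 60 to 56. Dusp1 held 3 CRE cores, of which the 2 at 143 to 139 and 140 to 136 overlap as 1 full CRE. Because the genes were picked by level and match, these windows cannot show whether an element and a ratio go together. CRE cores were also matched in promoters of Junb and Nr4a1, with ratios of 2.07 and 0.581. A match is a description of letters and not a binding site. Bases further upstream were not searched, so an element not found here may lie there. GENCODE starts Zfp36 further upstream than RefSeq does, so its promoter there would be another window.

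Across the set, CRE cores and CArG boxes were present in a larger share of promoters than among genes of 1 RPKM or more. RefSeq promoters matched 30 of the 38 genes, with 40 start sites in all, some of which overlap. Only the 250 bases before each start were searched. Elements further upstream, and genes without a matched promoter, are not covered. The CRE core, which also lies within the full CRE, was present on either strand in 22 of the 40 promoters (55%), belonging to 16 genes, against 27.7% of 9426 promoters of genes of 1 RPKM or more and 17.8% of all 32851. The full CRE was in the promoters of Btg2, Dusp1 and Maff (7.5% of the 40, against 2.75% of the promoters of genes of 1 RPKM or more and 1.55% of all). CArG boxes, on either strand, were in the promoters of 3 genes, Zfp36, Egr2 and Dusp5 (15% of the 40, against 1.16% and 1.47%). Egr2 held it at several overlapping start sites, which raises the share. Egr2 and Dusp5 were among the genes that did not reach 1 RPKM. An NF-kB motif was found on either strand in 7 genes, Nfkbia, Tnfaip3, Ier3, Fos, Fosb, Fosl2 and Maff (17.5% against 4.47% and 3.90%). The AP-1 site was in 3 genes, Csrnp1, Tnfaip3 and Zfp36l1 (7.5% against 4.16% and, over all promoters, 6.75%), and the TATA box, on the gene's strand, in 6 (15% against 3.68% and 7.59%). Of the 3 genes with a full CRE, Maff had a ratio of 1.997, Btg2 1.33 and Dusp1 1.09.

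The 3′ UTRs of the set carried the AU-rich elements on which ZFP36 proteins act more often than those of other genes. The heptamer TATTTAT was present in the 3′ UTR of 23 of the 38 genes (60.5%), against 30.2% of 9327 genes of 1 RPKM or more, while the median UTR length was 1194 bases against 1134. Zfp36, Dusp1, Fosl2, Zfp36l1 and Zfp36l2 had 3 heptamers each and Ier3 had 4. Genes without a heptamer included Egr1, Junb, Nr4a1, Rhob and Btg1. Ier3, with the most, had a ratio of 0.768, and Zfp36 and Fosl2, with 3 each, had 2.81 and 0.602. The genes of the set were also compact, with a median of 3.5 exons against 9 and a median span of 5211 bases against 25244.5. Of the 38, 6 genes (15.8%) had a single exon, namely Jun, Junb, Jund, Ier2, Ier5 and Rhob, against 2.36% of genes of 1 RPKM or more.

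**Figure D3:**
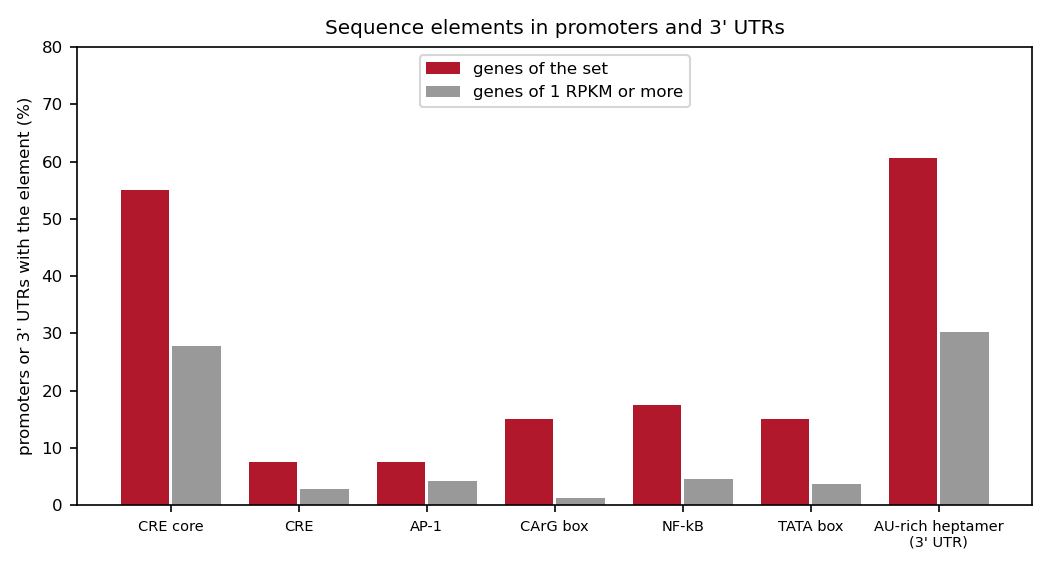
Percent of promoters (first 6 pairs) or 3′ UTRs (last pair) that hold each element, for the genes of the set (red, 40 promoters and 38 3′ UTRs) and for genes of 1 RPKM or more (grey, 9426 promoters and 9327 3′ UTRs). Promoters are the 250 bases before each start. The red bar is taller in each pair, with 55% against 27.7% for the CRE core and 60.5% against 30.2% for the AU-rich heptamer.

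AP-1 is a dimer of a FOS and a JUN protein, or of JUN proteins alone, and binds the AP-1 site. Jun, the main JUN subunit, had 52.0 and 49.5 RPKM, a ratio of 0.952 (0.907 to 0.999). Fos had 35.8 and 35.0 RPKM, a ratio of 0.980 (0.912 to 1.05). The pair that forms the classical AP-1 dimer was thus abundant at both ages, and which of the libraries held more of either depended on the scaling. Fosb, which forms similar dimers, had 20.7 and 27.3 RPKM, a ratio of 1.32 (1.23 to 1.41), and with equal totals its log2 ratio was 0.00. Fosl2, which encodes FRA2, went the other way, with 7.30 and 4.40 RPKM, a ratio of 0.602 (0.544 to 0.666). Fosl1, which encodes FRA1, was listed at values too small to be 1 read in either library. The summed RPKM of the 7 AP-1 subunits was 120.6 at P7 and 124.6 at P28.

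Of the other JUN genes, Junb, which often opposes JUN, had 2.62 RPKM at P7 and 5.44 at P28. Its ratio was 2.07 (1.60 to 2.68) and its log2 ratio 0.83, so it reached 2-fold only as a plain ratio. By plain ratio 2 of the 30 genes, Zfp36 and Junb, were 2-fold higher and 0 were 2-fold lower, against 2.56% and 6.25% of all genes. Over all its GENCODE transcripts, Junb (chromosome 8, 84974484 to 84978718, minus strand) overlaps exons of Prdx2 on the other strand, which had 21.3 and 15.9 RPKM. The transcript used for its length has 1 exon of 1809 bases in a gene span of 4235. Whether that transcript reaches the overlap was not checked. Nothing states that the counting used strand, so reads of any overlapping part cannot be told apart. Jund, the JUN gene that cells keep on without a stimulus, had 2.23 and 2.94 RPKM, a ratio of 1.32 (0.978 to 1.83), an interval that holds 1. Jun was therefore 19.8 times as abundant as Junb at P7 and 9.11 times at P28.

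Of the 3 other bZIP factors of the set, Atf3, Maff and Mafk, Maff had the largest ratio. This small Maf protein lacks an activation domain, and its mRNA had 1.55 and 3.10 RPKM, a ratio of 1.997 (1.38 to 2.85) and a log2 ratio of 0.68. Mafk, another small Maf, had 3.68 and 3.34 RPKM, a ratio of 0.908 (0.744 to 1.10). Over all its GENCODE transcripts, its exons overlap those of Tmem184a on the other strand, which had 1.93 and 2.53 RPKM. Atf3, a stress-induced repressor, had 8.42 and 10.7 RPKM, a ratio of 1.27 (1.10 to 1.47), and a log2 ratio of -0.05 with equal totals.

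In the EGR family, 1 member carried nearly the whole signal. Egr1, a zinc finger factor induced by growth factors and mechanical stress, had 19.8 and 21.7 RPKM, a ratio of 1.09 (1.01 to 1.18) that turned below 1 with equal totals (log2 ratio -0.25). Egr2, a factor of myelin formation, had 0.0766 and 0.0686 RPKM, or about 4 and 5 reads. Egr3, known from muscle spindles, had 0.0425 and 0.102 RPKM, or about 2 and 7 reads. Both stayed far under 1 RPKM, and no difference between the ages was detectable for them at this depth.

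The NR4A genes encode orphan nuclear receptors that are active without a ligand, and Nr4a1 and Nr4a2 differed in opposite directions. Nr4a1 (NUR77) had 4.49 RPKM at P7 and 2.61 at P28, a ratio of 0.581 (0.468 to 0.720). Nr4a2 (NURR1) had 0.899 and 1.66 RPKM, a ratio of 1.85 (1.36 to 2.59). Both directions were the same under each scaling tried. Nr4a1 was 4.999 times as abundant as Nr4a2 at P7 and 1.57 times at P28. Nr4a3 (NOR1) had 0.121 and 0.0863 RPKM, or about 12 reads in each library. Myc, which drives growth and is often induced together with Fos, was under 1 RPKM at both ages, with 0.663 and 0.508 RPKM and a ratio of 0.767 (0.428 to 1.41).

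The IER genes and 3 other response genes (Sik1, Rhob and Csrnp1) differed by less than 2-fold, and Ier3 and Rhob were lower at P28. Ier3, a regulator of apoptosis, had 11.6 and 8.88 RPKM, a ratio of 0.768 (0.640 to 0.924). Rhob, a small GTPase of endosomes, had 12.9 and 10.8 RPKM, a ratio of 0.842 (0.749 to 0.947). Sik1, a kinase that holds back CREB coactivators, had 5.36 and 6.38 RPKM, a ratio of 1.19 (1.05 to 1.34) and a log2 ratio of -0.13 with equal totals. Ier2, a nuclear regulator of transcription, had 3.95 and 4.73 RPKM, a ratio of 1.20 (0.935 to 1.54). Ier5, a partner of the heat shock factor HSF1, had 2.40 and 3.03 RPKM, a ratio of 1.27 (1.02 to 1.57). Csrnp1, a nuclear protein induced by AXIN, stayed just under 1 RPKM, with 0.845 and 0.985.

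The BTG proteins slow proliferation and bind the CCR4-NOT deadenylase. Btg2 had 18.6 and 24.8 RPKM, a ratio of 1.33 (1.23 to 1.45), and Btg1 had 11.5 and 13.0 RPKM, a ratio of 1.12 (1.04 to 1.22). With equal totals their log2 ratios were 0.02 and -0.21.

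Of the 3 dual-specificity phosphatases, only Dusp1 reached 1 RPKM. Dusp1 (MKP1), which switches off p38 and JNK in the nucleus, had 66.2 and 72.0 RPKM, a ratio of 1.09 (1.03 to 1.15) that turned below 1 with equal totals (log2 ratio -0.27). Over all its GENCODE transcripts, its exons overlap those of Ergic1 on the other strand, which had 3.14 and 2.63 RPKM. Whether the transcript of 1990 bases used for its length overlaps Ergic1 was not checked. Dusp2 (PAC1), a phosphatase best known from lymphocytes, had 0.0351 and 0.0251 RPKM, or about 1 read in each library. Dusp5, a phosphatase of ERK, had 0.0983 and 0.0352 RPKM, or about 4 and 2 reads. At neither age did Dusp2 or Dusp5 come near the level of Dusp1.

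The inhibitors induced by NF-kB and by cytokines differed little. Nfkbia, which encodes the inhibitor IkBalpha, had 4.60 and 6.67 RPKM, a ratio of 1.45 (1.17 to 1.81), and it was the only one of these 4 genes whose interval excluded 1. With equal totals its interval held 1, and those of Nfkbiz and Tnfaip3 lay below 1. Nfkbiz, a nuclear cofactor of NF-kB, had 7.69 and 7.79 RPKM, a ratio of 1.01 (0.905 to 1.14). Tnfaip3 (A20), a ubiquitin-editing enzyme, had 1.94 and 1.65 RPKM, a ratio of 0.848 (0.676 to 1.06). Socs3, an inhibitor of STAT3 signalling, had 1.67 and 1.75 RPKM, a ratio of 1.05 (0.776 to 1.43).

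The GADD45 genes encode small stress sensors that act on p38 signalling and the cell cycle. Gadd45g was the most abundant, with 4.84 and 5.23 RPKM and a ratio of 1.08 (0.827 to 1.43). Gadd45b had 3.05 and 3.53 RPKM, a ratio of 1.16 (0.854 to 1.59). Gadd45a, a target of p53, had 1.43 and 2.36 RPKM, a ratio of 1.65 (1.06 to 2.59), the only one of the 3 whose interval excluded 1, which it no longer did with equal totals. Their order was the same in both libraries.

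**Figure D4:**
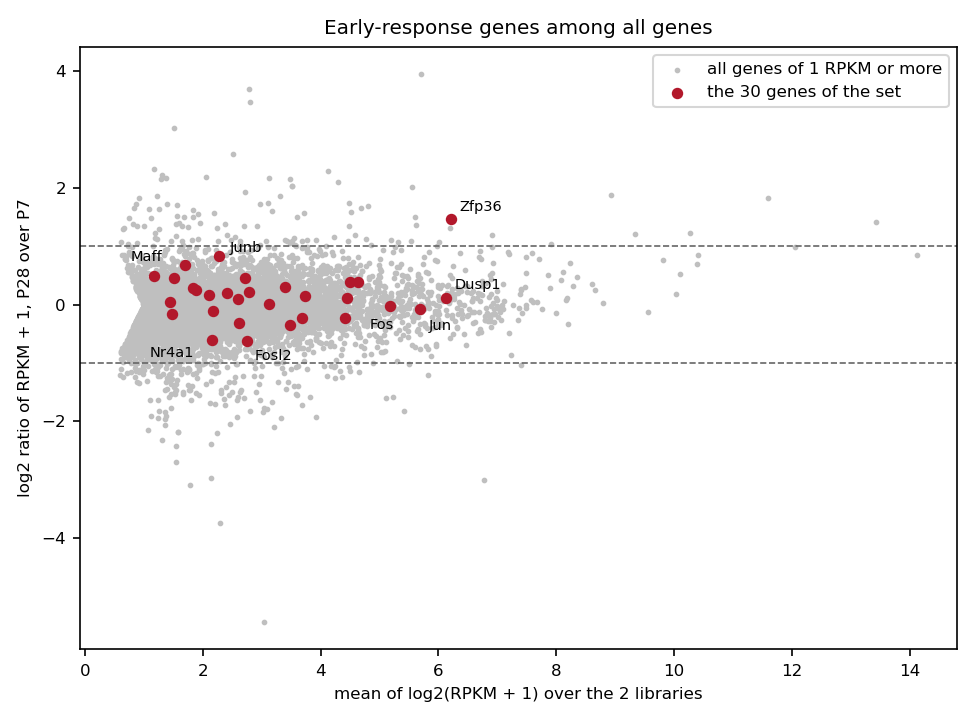
Log2 ratio of RPKM + 1 (P28 over P7) against the mean of log2(RPKM + 1) for the 9653 genes of 1 RPKM or more (grey) and the 30 genes of the set (red), with dashed lines at 2-fold. Only Zfp36 lies beyond a dashed line, and the other 29 lie within the band of all genes between -0.62 and 0.83.

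The kinases, partners and relatives around these genes mostly differed by less than 2-fold on the log2(RPKM + 1) scale, on which the counts below stand. Of 27 upstream factors and kinases (such as SRF, the ELK factors and MAP kinases) 0 were 2-fold apart, with a median log2 ratio of -0.20. By plain ratio 2 of them were 2-fold lower, Rps6ka4 (1.61 and 0.428 RPKM) and Rps6ka1 (2.13 and 0.986), and with equal totals Rps6ka4 was so on the log2(RPKM + 1) scale too. Among those of 5 RPKM or more the largest log2 ratios in size were those of Map2k4, which activates JNK, with 6.47 and 4.68 RPKM, and of Mkl2, an SRF coactivator, with 5.49 and 3.96. Of 19 bZIP and EGR partners, 8 genes of the MYC network, 12 other dual-specificity phosphatases and 13 genes of mRNA decay, 0 were 2-fold apart, with medians of -0.05, -0.01, 0.05 and -0.11. By plain ratio Cebpb (0.598 and 1.31 RPKM) and Dusp12 (0.620 and 1.24) were 2-fold higher, and Batf (4.59 and 2.11), Mycn (1.18 and 0.110) and Dusp10 (1.05 and 0.420) 2-fold lower. With equal totals Batf and Mycn were also past 2-fold on the log2(RPKM + 1) scale. Among them Cebpg had 5.48 and 10.1 RPKM, Dusp18 7.04 and 12.2, Dusp16 6.31 and 10.3, and Hnrnpd, another AU-rich element binding protein, 8.70 and 5.39. Of 20 genes of NF-kB and SOCS signalling 1 was higher, Socs2, an inhibitor of growth hormone signalling, with 14.9 and 35.3 RPKM, a ratio of 2.37 (2.14 to 2.63) and a log2 ratio of 0.81 with equal totals. Its relative Cish had 5.96 and 2.88 RPKM, a log2 ratio of -0.84. Sik2, the relative of Sik1, had 6.08 and 2.83 RPKM, and 0 of the 5 genes of its list were 2-fold apart on the log2(RPKM + 1) scale.

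Other early-response and dissociation genes outside the set included more genes that were 2-fold apart. Of 32 further factors and regulators 2 were higher, Pim3 (2.77 and 7.16 RPKM) and Klf9 (4.52 and 10.2), and 3 were lower, Id1 (15.1 and 4.09), Id2 (63.4 and 30.7) and Id3 (28.7 and 6.83), with a median of -0.06. With equal totals 0 were higher and 6 lower. Of 9 secreted or surface products 0 were higher and 3 were lower, with a median of -0.51. These were Ctgf (18.8 and 4.15 RPKM), Cyr61 (17.9 and 6.24) and Thbs1 (7.58 and 2.41), whose products are matricellular proteins. Vegfa, an endothelial growth factor, had 40.8 and 19.97 RPKM, a log2 ratio just under 2-fold. Its plain ratio was 0.489 (0.450 to 0.531), and its log2 ratio with equal totals was -1.38. By plain ratio, and also with equal totals, 4 of the 9 were 2-fold lower and 0 higher. In the same libraries 6 of 9 endothelial markers of 1 RPKM or more were lower and 0 higher, and of 10 fibroblast and smooth muscle markers 5 were lower and 1, Inmt (0 and 2.31 RPKM), was higher. The part of those cells in the difference was not tested. Of 17 heat shock and metallothionein genes 6 were higher and 1 lower, with a median of 0.63. Those higher were Hsph1 (3.09 and 17.5 RPKM), Dnajb1 (12.1 and 38.6), Dnaja1 (17.6 and 39.5), Hspb1 (3.33 and 7.88) and the near-identical pair Hspa1a and Hspa1b, whose reads can be shared and which reached 1 RPKM only at P28. The lower one was Mt2, a metallothionein, with 19.3 and 5.997 RPKM. With equal totals 4 of the 6 remained 2-fold higher, namely Hsph1, Dnajb1 and that pair. Heat shock genes are commonly listed among dissociation-induced genes beside Fos, Jun and Egr1, whose ratios in the same libraries were 0.980, 0.952 and 1.09. The direction of these 3 depended on the scaling. Other genes of the set differed more in either direction, such as Zfp36 (2.81) and Fosl2 (0.602). The part of dissociation in any of these values was not tested.

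**Figure D5:**
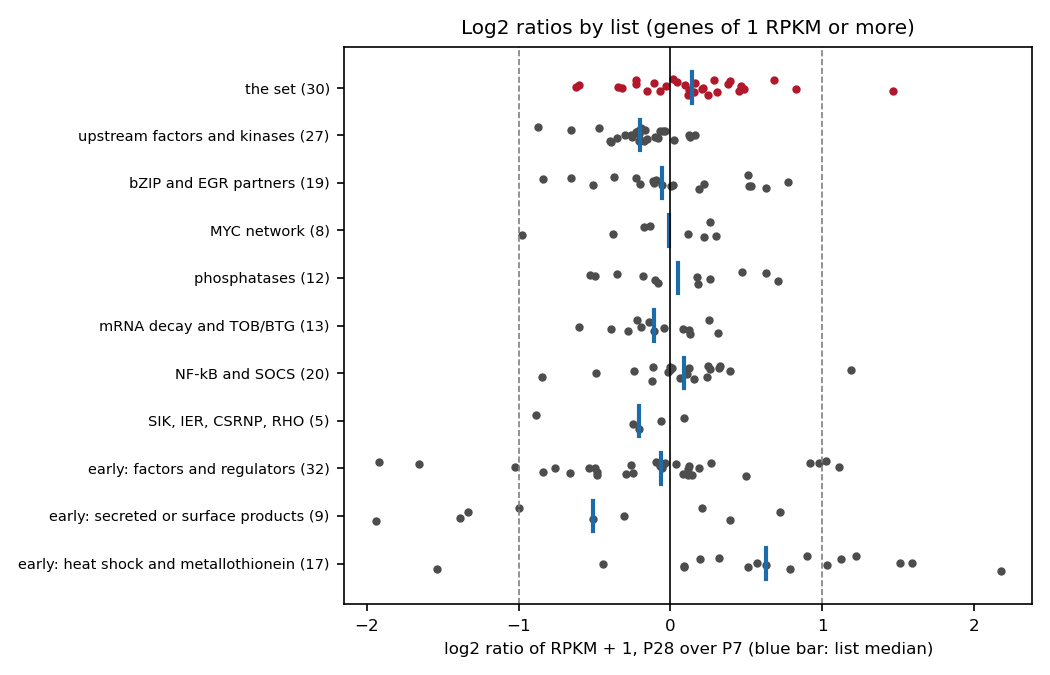
Log2 ratio of RPKM + 1 (P28 over P7) of each gene of 1 RPKM or more, for the set (red) and for 10 other lists (grey), with list medians as blue bars and dashed lines at 2-fold. Heat shock and metallothionein genes have a median of 0.63 and secreted or surface products one of -0.51, while the set has 0.14 with Zfp36 as the only gene past a line.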

How the data were processed

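RNA of sorted type II pneumocytes was sequenced as paired reads from Nextera XT libraries, per the labels' protocols. Expression was deposited by the authors as RPKM, 1 column per library, per the file headers. TopHat, TopHat2 2.0.9 and the build GRCm38 (mm10) appear, with no role, per the submitters' processing notes. What program and annotation gave the RPKM is not stated there.

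Log2 ratios used a pseudocount of 1 RPKM, which understates differences of low genes, for genes that reached 1 RPKM in either library. A gene was called at 2-fold. Folds with intervals are plain ratios of RPKM. Reads were recovered from whole steps of low values times transcript length (GENCODE M21, RefSeq-matched transcripts, within 0.05 of a whole read for 59.5% of 2487 genes of few reads in the P7 library and 57.8% of 2290 in the other, against 10% by chance), so read numbers are approximate, and most so for the 6 genes of the set with several lengths. Zfp36 had 1 length, but RefSeq starts it further downstream than GENCODE does, so its read numbers and the width of its interval are uncertain too. The settings of transcript length could not vary it, and its plain ratio does not depend on length. PCR reads are not independent molecules, and intervals cover counting error only. Values under 1e-08 RPKM, as for Fosl1, are fractions of a read and were treated as 0. Positions are those of GENCODE M21, promoters those of RefSeq, both on GRCm38. Overlaps between genes were taken over the exons of all GENCODE transcripts of a gene. Python 3.11.15, scipy 1.17.1 and pandas 2.3.3 were used. Calls and intervals were tested on data simulated with counting error only, the error that the intervals assume. That test does not cover PCR reads or differences between animals.

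The genes and lists were chosen with earlier results of these data known. All 38 genes are reported, and of each of the 10 other lists up to 4 genes that reached 5 RPKM, by size of log2 ratio. Named outside that rule, after their values were seen, were Id2, Hspb1, Hspa1a, Hspa1b, Prdx2, Tmem184a, Ergic1, Gm44710, Xist, Ddx3y, Inmt, Rps6ka4, Rps6ka1, Cebpb, Dusp12, Batf, Mycn and Dusp10. Alternatives changed the pseudocount (0.1 or 5), the filter (5 RPKM or none), the library scaling and the transcript length. The call by plain ratio was added after seeing the data.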

Additional observations from a re-analysis of the deposited data

How the results depend on the processing

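No paired analysis was possible because each age has 1 library. Zfp36 was the member called higher in each setting, and 0 members were called lower in any. A pseudocount of 0.1 and the plain ratio each called 2 members higher, Zfp36 and Junb. After rescaling to the same total the median of the members became -0.21, and 4 member intervals lay above 1 and 14 below, against 5.17% and 67.8% of all genes. The longest or shortest transcript lengths left the counts as deposited at 14 and 7. Over all genes, the 114 higher and 189 lower became 226 and 530 with a pseudocount of 0.1, 39 and 34 with a pseudocount of 5, 73 and 93 at a filter of 5 RPKM, 65 and 445 with equal totals, and 247 and 603 by plain ratio. The share of called genes that were higher was 37.6% as deposited and 12.7% with equal totals. Of 180 single-gene values under another pseudocount or scaling, 158 stayed within counting error and on their side of 2-fold, 21 moved further, and that of Junb reached 2-fold with a pseudocount of 0.1. Genes of a few reads, such as Egr2, Egr3, Dusp2 and Dusp5, are limited by depth.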
